A study of Mus musculus with 60 samples.

Results

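At ZT20, during the dark, active phase of the mouse, 5 dnOGAh hearts were compared with 5 CON hearts. These 10 libraries, chosen by their labelled genotype and Zeitgeber time, were part of a series of 60 in which the same genotypes were sampled at 6 times of day. The study asked how raised protein O-GlcNAcylation in cardiomyocytes bears on the circadian clock of the heart and on its output. The dnOGAh mice carried TRE-EGFP-dnOGA, a doxycycline-driven transgene for a dominant negative splice variant of rat O-GlcNAcase, together with αMHC-rtTA, which restricts the transactivator to cardiomyocytes. The CON mice were littermates that carried αMHC-rtTA alone. All mice were male, on the C57BL/6 background, and all received doxycycline, as a 100 μg injection at 10 weeks of age and then in the diet at 1 g/kg. That is the age at the start of treatment. Hearts were taken weeks later, at an age that the paper gives as the same for all mice. Each library was made from polyadenylated RNA of both ventricles of 1 heart, so that cardiomyocytes and the other cells of the ventricle were read together.

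O-GlcNAc is a single sugar placed on serine and threonine residues of nuclear and cytosolic proteins by O-GlcNAc transferase (OGT) and taken off by O-GlcNAcase (OGA). Its donor, UDP-GlcNAc, is made by the hexosamine pathway from glucose, so the mark follows nutrient supply, and in the heart it sits on transcription factors, contractile proteins and components of the clock. The cardiomyocyte clock is a loop in which CLOCK and BMAL1 drive the genes of their own repressors, the PER, CRY and REV-ERB proteins, along with output factors such as DBP, TEF and HLF that carry time of day to metabolism and electrical activity.

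Counts assigned to genes ran from 9162859 to 23610567 in CON and from 22246856 to 39839222 in dnOGAh libraries at ZT20, and levels are given as counts per 1e+06 counts (CPM) scaled by TMM. Of 7 ventricular myocyte markers, none was below 239.6 CPM in any of the 10 libraries, although 5 of them were lower in dnOGAh hearts, from log2 -0.94 (Ttn) to -1.41 (Myl2), and Mybpc3 and Tnnt2 did not pass. Genes encoded by the mitochondrial genome took 31.2% ± 3.47 of counts in CON hearts and 15.4% ± 4.08 in dnOGAh hearts (SD, n = 5 each), a difference of -15.8 percentage points (exact permutation test, two-sided, p = 0.00794, the smallest p that 5 against 5 allows). Among the 50 libraries of the other times, 3 stood apart. The libraries labelled CON ZT4 replicate 4 and dnOGAh ZT4 replicate 4 had 77.6% and 66.0% of counts on mitochondrial genes, and the one labelled dnOGAh ZT12 replicate 3 had 70.0 CPM of Oga, within the CON range of 46.7 to 72.1. None of these is a ZT20 library, but they enter the shared estimate of spread and the comparison with the other times, so calls were also made without them.

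Oga, which is Mgea5 in the name table, encodes O-GlcNAcase and checks the labels. In CON hearts it was at 59.4, 53.5, 58.6, 60.4 and 62.1 CPM (replicates 1 to 5, in that order here and below). The dnOGAh hearts had 324, 272, 529, 264 and 709 CPM. Every dnOGAh heart lay above every CON heart, and replicates 5 and 3 were the highest (log2 2.84 ± 0.34 (SE), adjusted p = 2.23e-09, edgeR's quasi-likelihood test). Reads of the rat transgene can be assigned to this gene, so transgene and endogenous transcripts cannot be told apart. Ogt, which places the mark, did not pass the test at ZT20 (log2 -0.05, adjusted p = 0.689). Of the 7 tested genes of O-GlcNAc cycling and the hexosamine pathway, 5 were higher and none lower, where 23.6% of all 18119 tested genes were higher. Besides Oga these were Gfpt2, an isoform of the rate-limiting aminotransferase of the pathway (log2 0.97), Pgm3, which isomerises GlcNAc phosphate (log2 0.96), Nagk, the salvage kinase (log2 0.59), and Uap1, which makes UDP-GlcNAc (log2 0.29). Pgm3 passed under 13 of 19 alternative settings (adjusted p from 0.00649 to 0.1). The count of higher genes ran from 3 to 6 over the alternatives. It was 3 without dnOGAh replicate 5, without dnOGAh replicate 3, without CON replicate 2 and with the 10 ZT20 libraries alone.

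At ZT20, 7242 of 18119 tested genes (40%) differed between genotypes at an adjusted p under 0.05, 4283 higher (23.6%) and 2959 lower (16.3%) in dnOGAh hearts. More rises than falls exceeded 2-fold, in that 2721 genes were higher (15%) and 957 lower (5.28%). The 5 libraries of one genotype did not overlap those of the other in 2655 genes with higher (14.7%) and 1654 with lower levels in dnOGAh hearts (9.13%). The median log2 fold change of all tested genes was 0.08, against which the medians of the gene groups below can be read. The p-values rest on the spread between hearts of the same genotype and time, estimated over all 12 groups of the fit and not at ZT20 alone. With the 10 ZT20 libraries alone, 5758 genes passed. In bulk ventricle, fewer cells of a type and less RNA per cell cannot be told apart.

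The 5 dnOGAh hearts were not alike. Replicate 5 was the dnOGAh heart nearest to the CON hearts in 2437 of the 4283 higher genes (56.9%) and in 1848 of the 2959 lower genes (62.5%), whereas each of the other dnOGAh hearts was nearest in 7.47% to 13.5% of the higher and 6.29% to 15.3% of the lower genes. It also had the highest Oga level and the highest share of mitochondrial counts of the dnOGAh hearts (20.8%). Replicate 2 was the farthest from CON in 39.1% of the higher and 49.6% of the lower genes, at 272 CPM of Oga and 10.3% mitochondrial counts. Without replicate 5, 4401 genes were higher and 3409 lower, and 6967 of the 7242 calls were shared.

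Among the largest rises were those of matrix, interferon and innate immune genes. By the rule used to name them (mean of at least 5 CPM, passed, no overlap), the 8 highest were Slfn4, a Schlafen family gene of myeloid cells (log2 7.45), Sprr1a, a small proline-rich protein induced in stressed cardiomyocytes (log2 7.42), Tnc, tenascin C (log2 6.93), Oas3, an interferon-induced oligoadenylate synthetase (log2 6.67), Spp1, osteopontin (log2 6.63), Timp1, an inhibitor of metalloproteinases (log2 6.58), Il1rn, the interleukin-1 receptor antagonist (log2 6.30), and Clec4d, a myeloid lectin receptor (log2 6.07). The fitted values of Slfn4, Oas3, Il1rn and Clec4d rest on CON levels under 1 CPM. Timp1, at higher CON levels, is given in full. In CON hearts it was at 1.80, 4.79, 4.92, 1.93 and 5.28 CPM. The dnOGAh hearts had 338, 636, 305, 402 and 51.4 CPM. The groups were far apart, with replicate 5 the lowest dnOGAh heart (log2 6.58 ± 0.58 (SE), adjusted p = 9.28e-13). Sprr1a was at 0.474, 2.29, 1.17, 1.34 and 2.25 CPM in CON hearts and at 380.4, 394, 179, 262 and 30.8 CPM in dnOGAh hearts, again without overlap.

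Of the 8 lowest by the same rule, 7 are given here. They were Mylk4, a kinase of the myosin light chain kinase family (log2 -3.36), Efnb3, the membrane ligand ephrin B3 (log2 -2.95), Adhfe1, a mitochondrial transhydrogenase of 4-hydroxybutyrate (log2 -2.94), Ubxn10 (log2 -2.86), and Gm36372, Gm49477 and A530016L24Rik, for which no role is given here (log2 -3.14, -2.98 and -2.95). Adhfe1 was at 62.3, 62.6, 64.0, 63.4 and 69.4 CPM in CON and at 7.25, 5.05, 7.55, 6.95 and 15.0 CPM in dnOGAh hearts, with replicate 5 the highest dnOGAh heart but far below CON.

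**Figure D1:**
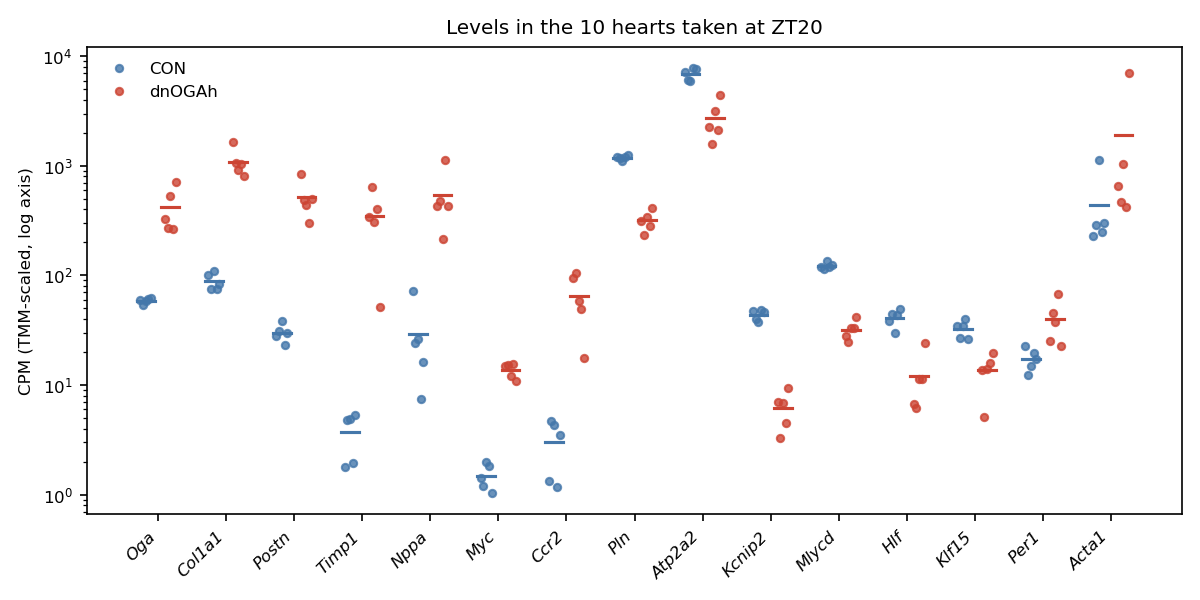
Level of selected genes, in CPM on a log axis, in each of the 5 CON (blue) and 5 dnOGAh hearts (red) at ZT20, with a bar at the mean of each group. Oga runs from 53.5 to 62.1 CPM in CON and from 264 to 709 CPM in dnOGAh hearts, whereas the Acta1 groups overlap and 1 dnOGAh heart reaches 6959 CPM.

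Extracellular matrix genes rose together. Of 23 tested collagen genes 18 were higher and none lower, with a median log2 fold change of 2.06. Col1a1, the main chain of type I collagen, was at 101, 74.8, 109.6, 74.5 and 83.8 CPM in CON hearts. In dnOGAh hearts it was at 1664, 1051, 906, 1033 and 802 CPM, all above CON, with replicate 1 the highest (log2 3.62 ± 0.35 (SE), adjusted p = 1.48e-11). Col3a1, the chain of type III collagen, had log2 3.84 and Col8a2, a short-chain collagen, log2 3.78. The fitted value of Col8a2 rests on CON levels under 1 CPM. The basement membrane chains Col4a1 and Col4a2 rose less (log2 0.95 and 0.82), and Col4a3, Col4a4, Col4a5 and Col4a6 did not pass (log2 from -0.30 to 0.97).

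Of 23 matrix glycoprotein, crosslinker and protease genes 22 were higher, with a median of 2.29. They included Lox, which crosslinks collagen (log2 4.63), Thbs1, thrombospondin 1 (log2 3.76), and Fn1, fibronectin (log2 3.26). The exception, Eln, elastin, had log2 0.77 (adjusted p = 0.0518). Among TGF-beta and growth factor genes 9 of 16 were higher and 1 lower (median 0.87). Ccn2, a matricellular target of TGF-beta, had log2 3.03, and Inhba, the activin A subunit, log2 2.14. Vegfa, the endothelial growth factor, was the 1 that was lower (log2 -0.78).

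Markers of fibroblasts and vessels moved in different directions. Of 12 activated fibroblast markers 10 were higher (median 2.38), and their summed level was 184 to 293 CPM in CON and 765 to 1569 CPM in dnOGAh hearts. Postn, periostin, was at 28.2, 30.8, 38.5, 23.2 and 29.9 CPM in CON and 847, 489, 436, 302 and 501 CPM in dnOGAh hearts, without overlap (log2 4.10 ± 0.43 (SE), adjusted p = 7.47e-11). Cthrc1, a collagen-associated secreted protein, had log2 4.65, a fitted value that rests on CON levels under 1 CPM. Ltbp2, a latent TGF-beta binding protein, had log2 3.72. Acta2, smooth muscle actin, and Fap, a fibroblast surface protease, did not pass (log2 0.26 and 0.08). Of 10 resident fibroblast markers 6 were higher and 1 lower (median 0.55). Among them Pdgfra, their growth factor receptor, had log2 0.93. The lower one, Lpl, lipoprotein lipase, is also made by cardiomyocytes (log2 -1.43).

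Of 14 endothelial markers none was higher and 7 were lower (median -0.56). Vwf, Eng, Pecam1, Tek, Esam, Flt1 and Egfl7 did not pass. The summed level of the list was 2145 to 2352 CPM in CON and 1113 to 2086 CPM in dnOGAh hearts. Much of that sum came from Fabp4 and Aqp1, with means of 706 and 382 CPM in CON and 375 and 196 CPM in dnOGAh hearts. Kdr, the main VEGF receptor, was at 100.4, 91.6, 104, 115 and 105 CPM in CON hearts. In dnOGAh hearts it was at 31.4, 27.4, 50.4, 29.9 and 118 CPM, with replicate 5 above the CON hearts and the others below them (log2 -1.01 ± 0.24 (SE), adjusted p = 0.00049). The count of lower markers was 9 without dnOGAh replicate 5 and 12 without the 3 libraries that stood apart at other times. Smooth muscle and pericyte markers were mixed, with 2 higher (1 to 3 over the alternatives, where 23.6% of all tested genes were higher) and 4 lower of 10 (summed level 868 to 1045 CPM in CON, 421.5 to 873 in dnOGAh hearts). Cnn1, calponin, was among the higher (log2 1.11) and Rgs5, a pericyte marker, among the lower (log2 -0.63). The part of these markers in the matrix result was not tested.

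Immune markers were higher in dnOGAh hearts. Of 13 macrophage and monocyte markers 10 were higher and none lower (median 2.67), and their summed level was 319 to 384 CPM in CON and 889 to 2771 CPM in dnOGAh hearts, with replicate 5 at 889 and the others from 1992 upwards. Ccr2, the chemokine receptor that recruits monocytes to tissue, was at 1.33, 4.68, 4.34, 1.17 and 3.48 CPM in CON hearts. In dnOGAh hearts it was at 93.8, 106, 58.8, 49.7 and 17.6 CPM, without overlap (log2 4.53 ± 0.47 (SE), adjusted p = 7.4e-11). Markers of resident macrophages did not pass, with log2 -0.17 for Lyve1, 0.16 for Timd4 and 0.41 for Cd163. Ly6c2, a marker of inflammatory monocytes, had log2 5.48 and Fcgr1, the high-affinity IgG receptor, log2 4.32.

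Of 11 lymphocyte markers 8 were higher and none lower (median 3.18), at summed levels of 6.54 to 8.95 CPM in CON and 28.8 to 114 CPM in dnOGAh hearts. The T and NK cell genes Nkg7, Cd3g and Cd8a had log2 4.82, 4.75 and 4.50, fitted values that rest on CON levels under 1 CPM. The B cell genes Cd79a and Ms4a1 did not pass (log2 0.86 and 0.49). Of 8 tested granulocyte and mast cell markers 2 were higher, at summed levels of 5.17 to 12.9 CPM in CON and 12.4 to 26.3 CPM in dnOGAh hearts, which overlapped. That share was near the 23.6% of all tested genes, the count was 1 with a mean of at least 1 CPM, and the neutrophil marker Ly6g had 0 counts in all 10 libraries. Of 20 inflammation, chemokine and interferon genes 18 were higher (median 3.53). Besides Spp1 these included Lgals3, galectin 3 (log2 5.73), Ccl8, a monocyte chemokine (log2 5.76), and Cxcl10, an interferon-induced chemokine (log2 5.70), while Cxcl12 and Cxcl1 did not pass (log2 -0.36 and 0.96). Of 15 cell cycle genes 14 were higher (median 2.45), among them Aurkb, a mitotic kinase (log2 3.74), Ccnb1, cyclin B1 (log2 3.17), and Top2a, a topoisomerase of dividing cells (log2 3.00). Which cells made these transcripts was not tested.

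Markers of other sources were called in numbers below or near the 40.0% of all tested genes called in either direction. None of 5 tested adipocyte markers passed, and 1 of 7 erythroid and platelet markers was higher (Pf4, platelet factor 4, log2 1.57). Of 7 neuron and Schwann cell markers 1 was higher (Mbp, myelin basic protein, log2 1.60) and 1 lower (Dbh, which makes noradrenaline, log2 -1.97). Of 8 tested skeletal muscle markers 2 were higher and 1 lower, and Myh4, a fast skeletal myosin, had 0 counts in all 10 libraries. Of 7 atrial markers 1 was higher and 1 lower. The higher was Nppa, which ventricles also make under load, while Myl7 and Myl4, atrial myosin light chains, did not pass (log2 -0.40 and 0.20). The summed atrial level, Nppa included, was 81.3 to 902 CPM in CON and 511 to 2258 CPM in dnOGAh hearts. It was highest in dnOGAh replicate 4. Whether the hearts differed in atrial tissue was not tested.

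The fetal and stress program of the ventricle rose except for its myosin. Of 11 tested genes 10 were higher and 1 lower (median 2.40). The count of higher genes was 8 without dnOGAh replicate 5, the lowest over the alternatives. Nppa, atrial natriuretic peptide, was at 71.3, 24.1, 26.0, 7.48 and 16.4 CPM in CON and 433, 481, 215, 1141 and 432 CPM in dnOGAh hearts, without overlap and with replicate 4 the highest (log2 4.21 ± 0.80 (SE), adjusted p = 2.52e-05). Nppb, B-type natriuretic peptide, had log2 2.40, Ankrd1, a titin-associated stress protein, log2 2.57, and Gdf15, a stress-induced cytokine, log2 3.61. Myh7, the fetal ventricular myosin in mice, went the other way (log2 -1.64, adjusted p = 0.00528). Acta1, skeletal actin, which is reexpressed in loaded ventricles, was at 229.8, 289, 1129, 251 and 298 CPM in CON hearts and 656, 469.6, 1048, 420.2 and 6959 CPM in dnOGAh hearts. The groups overlapped, and the result rested on replicate 5, the dnOGAh heart otherwise nearest to CON. Its log2 fold change was 2.12 with that heart and 0.56 without it (adjusted p = 0.246, against 1.65e-05 to 0.246 over the 19 alternatives). Mt2, metallothionein 2, was likewise led by 1 heart, at 0.427, 0.436, 0.469, 0.0584 and 0.129 CPM in CON and 0.998, 3.15, 0.215, 33.6 and 2.07 CPM in dnOGAh hearts, and the groups overlapped (log2 4.80 ± 0.96 (SE), adjusted p = 6.15e-05, log2 2.48 without dnOGAh replicate 4, passed under 18 of 19 alternatives).

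Contractile and electrical genes of the mature cardiomyocyte were lower. Of 18 sarcomere and calcium handling genes none was higher and 12 were lower (median -0.76). Pln, phospholamban, which restrains the calcium pump, was at 1207, 1175, 1100, 1206 and 1257 CPM in CON hearts. Its dnOGAh levels were 313, 233, 344, 284 and 409.9 CPM, without overlap (log2 -1.91 ± 0.26 (SE), adjusted p = 3.12e-08). Atp2a2, the pump SERCA2, had log2 -1.35, Hrc, a calcium-binding protein of the same store, log2 -1.58, and Ryr2, its release channel, log2 -0.99. Thin filament genes were uneven, with Tnni3, cardiac troponin I, lower (log2 -1.19), and Tnnt2, Tnnc1 and Tpm1 not passing (log2 -0.35, -0.39 and -0.33). Of the 7 ventricular markers Ttn, Myh6, Ryr2, Tnni3 and Myl2 were lower and Mybpc3 and Tnnt2 did not pass.

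Of 17 ion channel and electrophysiology genes none was higher and 13 were lower (median -1.16). Kcnip2, the subunit that sets the transient outward potassium current, was at 47.2, 40.3, 37.4, 47.96 and 46.2 CPM in CON and 6.98, 3.28, 6.87, 4.47 and 9.45 CPM in dnOGAh hearts (log2 -2.82 ± 0.41 (SE), adjusted p = 1.45e-07), a fall in every dnOGAh heart. Kcnd2 and Kcnd3, the pore subunits of that current, had log2 -1.06 and -1.40. Abcc9, the sulfonylurea receptor of the KATP channel, which pericytes and smooth muscle share, had log2 -1.74, and Kcnj2, an inward rectifier subunit, log2 -1.47. Gja1, connexin 43, did not pass (log2 -0.38).

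**Figure D2:**
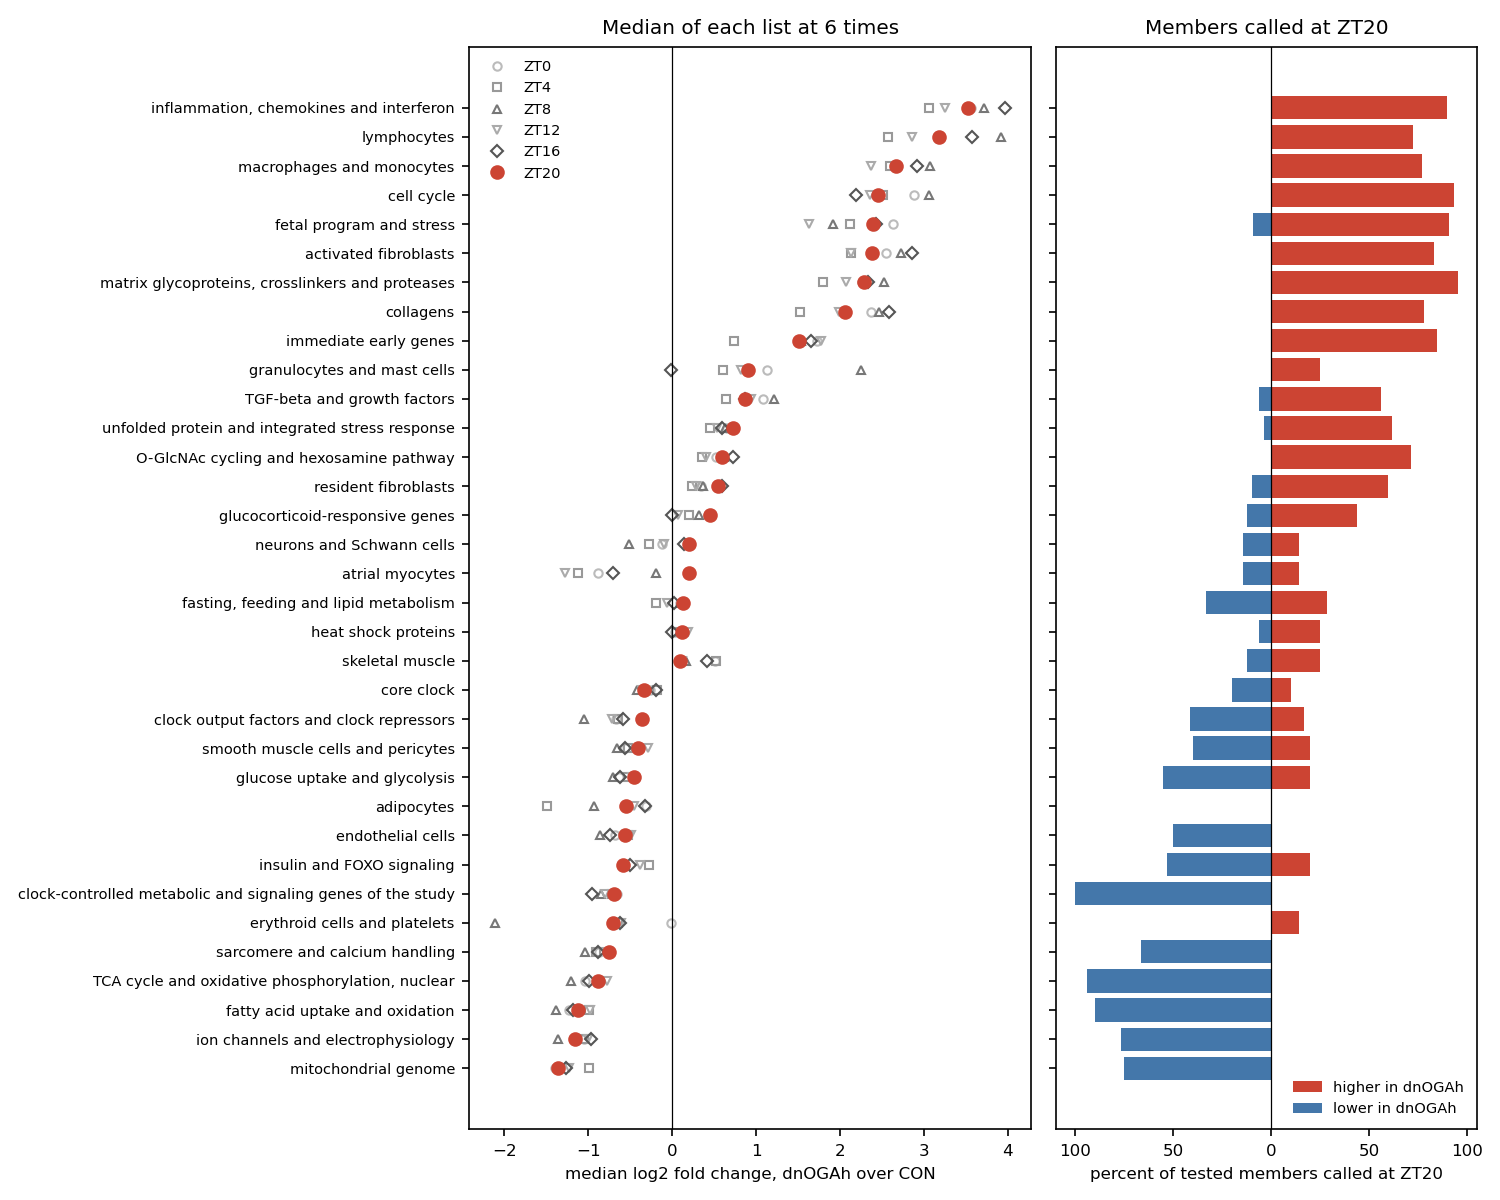
Left, median log2 fold change of dnOGAh over CON of the tested members of each gene group at ZT20 (filled red circles) and at the other 5 times (open gray symbols), and right, the percent of tested members called higher (red, to the right) or lower (blue, to the left) at ZT20. At ZT20 the medians run from -1.36 for the mitochondrial genome to 3.53 for inflammation, chemokines and interferon.

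Genes of fuel oxidation were lower. Of 30 genes of fatty acid uptake and oxidation none was higher and 27 were lower (median -1.13). Mlycd, malonyl-CoA decarboxylase, which relieves the block on fatty acid import into mitochondria, was at 120.4, 115, 136, 119 and 124 CPM in CON hearts. Its dnOGAh levels were 27.8, 24.5, 32.9, 32.8 and 41.6 CPM, without overlap (log2 -1.94 ± 0.26 (SE), adjusted p = 4.08e-08). Ucp3, an uncoupling protein regulated by PPARα, had log2 -2.16, Etfa, an electron carrier of β-oxidation, log2 -1.69, and Ppara itself log2 -1.51. Cpt1a, the carnitine palmitoyltransferase of liver, and Cpt1b, that of muscle, did not pass (log2 -0.07 and -0.85).

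Nuclear genes for the TCA cycle and respiratory chain fell almost without exception, with 33 of 35 lower and none higher (median -0.88). Fh1, fumarase, had log2 -1.14, Cox7a1, a muscle subunit of cytochrome oxidase, log2 -1.29, and Sdhb, of complex II, log2 -1.08. Of 12 tested genes of the mitochondrial genome 9 were lower (median -1.36), with mt-Nd4, of complex I, at log2 -1.66. The share of counts on mitochondrial genes did not overlap between genotypes, from 27.5% to 35.2% in CON and from 10.3% to 20.8% in dnOGAh hearts, and with the mitochondrial mRNA genes alone the difference was -14.8 points.

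Genes of glucose use were called in both directions. Of 20 tested 4 were higher and 11 lower (median -0.45). Of all tested genes 23.6% were higher and 16.3% lower, so only the lower share stood above that of all genes. The count of higher genes ran from 2 to 4 over the alternatives. The transporter of most tissues, Slc2a1, was higher (log2 1.13) and the insulin-responsive transporter of muscle and fat, Slc2a4, lower (log2 -1.14). Of the phosphofructokinases Pfkp, the platelet form, was higher (log2 1.30) and Pfkm, the muscle form, lower (log2 -1.25). Of the enolases Eno1 was higher (log2 0.45) and the muscle form Eno3 lower (log2 -1.66). Among genes of fasting, feeding and lipid metabolism 6 of 21 were higher, near the share of all tested genes, and 7 lower. The count of higher genes ran from 5 to 7 over the alternatives. Plin5, of lipid droplets in oxidative tissue, was lower (log2 -1.09). Pdk4, which spares glucose in fasting, did not pass (log2 -0.38).

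Immediate early and stress-response genes were mostly higher. Of 20 immediate early genes 17 were higher and none lower (median 1.52). Without dnOGAh replicate 5, 15 were higher and 1 lower, and the count of higher genes ran from 13 to 17 over the alternatives. Myc was at 1.42, 1.20, 1.99, 1.81 and 1.03 CPM in CON and 14.8, 15.2, 12.2, 15.6 and 10.9 CPM in dnOGAh hearts, without overlap (log2 3.21 ± 0.38 (SE), adjusted p = 1.61e-09). Egr2, a serum-responsive transcription factor, had log2 4.48 and Atf3, a stress-induced one, log2 3.12. Stress-response genes (unfolded protein and integrated stress responses) numbered 26 tested, of which 16 were higher and 1 lower (median 0.73). The members with the steepest rises were enzymes of serine and one-carbon metabolism, whose genes ATF4 can drive. These were Psat1, Phgdh, Mthfd1l and Mthfd2 (log2 2.67, 2.56, 2.42 and 2.38), with Asns, asparagine synthetase, at log2 1.36. The part of ATF4 in these rises was not tested. Hspa5, the main chaperone of the endoplasmic reticulum, and Trib3 did not pass (log2 0.16 and 0.23), and Herpud1, which serves the degradation of misfolded proteins, was lower (log2 -0.57). Chac1 and Atf5 did not pass either.

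Of 16 heat shock genes 4 were higher and 1 lower, near the 23.6% of all tested genes that were higher, and the count of higher ranged from 3 to 6 over the alternatives. Hspb1, a small heat shock protein, had log2 1.92. Hspa1a and Hspa1b had log2 1.76 and 2.42, values that are uncertain because these copies are near-identical and can share reads. Of 16 tested glucocorticoid-responsive genes 7 were higher (5 to 8 over the alternatives) and 2 lower (1 to 3). Of all tested genes 23.6% were higher and 16.3% lower. Fkbp5, a co-chaperone of the receptor, had log2 0.69, and Tsc22d3, a further target, did not pass (log2 -0.25). Of 15 insulin and FOXO genes 3 were higher and 8 lower, against 23.6% and 16.3% of all tested genes. Cdkn1a, the cell cycle inhibitor p21, was the highest (log2 2.46), Insr, the insulin receptor, was lower (log2 -0.75), and Trim63 and Fbxo32, the muscle ubiquitin ligases, were lower as well (log2 -0.69 and -0.68).

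Of the 10 core clock genes, 1 was higher and 2 were lower at ZT20 (median -0.33), where 23.6% of all tested genes were higher and 16.3% lower. The count of lower core clock genes ran from 0 (without dnOGAh replicate 2) to 4 (limma-voom) over the alternatives. Per1, a repressor of the loop that also responds at once to hormones and calcium, was at 22.9, 12.4, 15.0, 19.6 and 17.1 CPM in CON hearts. Levels in dnOGAh hearts were 25.0, 45.1, 37.3, 68.2 and 22.9 CPM. Replicate 4 was the highest, and only the lowest dnOGAh and the highest CON heart met, at 22.9 CPM (log2 1.18 ± 0.32 (SE), adjusted p = 0.0026, passed under 19 of 19 alternatives). Clock, the partner of BMAL1, was at 41.9, 42.0, 45.6, 40.5 and 41.01 CPM in CON and 29.2, 28.5, 37.6, 37.2 and 32.3 CPM in dnOGAh hearts, all below CON. Its difference was small (log2 -0.36 ± 0.14 (SE), adjusted p = 0.0393), and it passed under 9 of the 19 alternatives (adjusted p from 0.00179 to 0.107). Cry2, a repressor, was lower (log2 -0.50, adjusted p = 0.0104).

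Arntl, the gene of BMAL1, did not pass. It was at 19.2, 15.9, 17.2, 14.4 and 19.2 CPM in CON and 19.7, 11.8, 16.5, 11.6 and 9.54 CPM in dnOGAh hearts, with overlapping groups (log2 -0.31 ± 0.25 (SE), adjusted p = 0.335). Nor did Npas2, a relative of Clock, Nr1d1 and Nr1d2, which encode REV-ERB repressors, Per2, Per3 or Cry1 (log2 from -0.63 to 0.28). Per3 was lower under 4 of 19 alternatives (also without the 3 libraries that stood apart, log2 -0.63, adjusted p = 0.0223) and Nr1d2 under 2. Without dnOGAh replicate 5 both were lower (Per3 log2 -1.17, adjusted p = 0.000215, range over alternatives 0.000215 to 0.249, and Nr1d2 log2 -0.74, adjusted p = 0.00273, range 0.00273 to 0.464).

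Among 12 output factors and clock repressors 2 were higher and 5 lower (median -0.36). Of all tested genes 23.6% were higher and 16.3% lower, so only the lower share stood above that of all genes. Hlf, an output factor of the PAR bZIP family, was at 38.6, 44.5, 29.8, 43.5 and 49.0 CPM in CON hearts. Its dnOGAh levels were 6.65, 6.20, 11.4, 11.4 and 24.1 CPM, without overlap and with replicate 5 the highest (log2 -1.78 ± 0.33 (SE), adjusted p = 1.89e-05). Tef, of the same family, was lower (log2 -0.74, adjusted p = 9.56e-05). Dbp, the third member, was at 9.11, 7.08, 6.21, 9.64 and 9.66 CPM in CON and 4.17, 3.02, 4.33, 4.35 and 13.8 CPM in dnOGAh hearts. The groups overlapped through dnOGAh replicate 5 alone, and Dbp did not pass (log2 -0.50, adjusted p = 0.204) unless that heart was left out (log2 -1.08, adjusted p = 0.00233, against 0.00233 to 0.447 over the alternatives).

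Klf15, a factor that times amino acid and lipid use, was at 34.2, 26.8, 34.8, 40.2 and 26.4 CPM in CON and 13.8, 5.15, 14.0, 15.8 and 19.4 CPM in dnOGAh hearts, without overlap (log2 -1.26 ± 0.28 (SE), adjusted p = 0.000218). Klf9, a glucocorticoid target, was lower too (log2 -0.66), although it failed under 5 of 19 alternatives (adjusted p from 0.000216 to 0.0881). The repressors Bhlhe40 and Bhlhe41, which compete for the sites of CLOCK and BMAL1, were higher. Bhlhe40 was at 16.0, 17.2, 19.6, 17.2 and 28.1 CPM in CON and 53.4, 41.3, 47.98, 32.4 and 51.5 CPM in dnOGAh hearts, each above the CON range (log2 1.21 ± 0.22 (SE), adjusted p = 1.07e-05). Bhlhe41 had log2 0.61 (adjusted p = 0.00779). Nfil3, Ciart, Cipc and Rora did not pass (log2 from -0.21 to 0.14).

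The 4 metabolic and signaling genes that the study follows as clock-controlled were all lower. The study had picked them because earlier work placed them under the cardiomyocyte clock, and it followed them in hearts of these genotypes, so their direction here is not independent evidence. Dgat2, which makes triglyceride, was at 436, 362, 376, 428 and 436 CPM in CON and 113, 81.9, 136, 165 and 211 CPM in dnOGAh hearts (log2 -1.53 ± 0.25 (SE), adjusted p = 1.81e-06). Nampt, of NAD+ salvage, Pik3r1, a regulatory subunit of PI3 kinase, and Rhobtb1 had log2 -0.70, -0.68 and -0.61, and Rhobtb1 failed under 4 of 19 alternatives (adjusted p from 0.000414 to 0.0721).

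CLOCK and BMAL1 bind the E-box CACGTG, which reads the same on both strands. Promoter windows of 300 bases (250 before to 50 after a gene's start, RefSeq, GRCm38.p6) were found for 19 of the 22 core clock and output genes, and 8 of their 25 windows held this motif (32.0%), against 2349 of 32851 promoter windows of the same length (7.15%). The 7 genes with the motif were spread over the outcomes at ZT20, with 2 higher, 2 lower and 3 that did not pass. The 4 that passed are shown because genes that rose and genes that fell carry the same letters, which are printed in capitals.
Per1, higher (chr11:69098699-69098998, plus strand, motif 166 bases before the start): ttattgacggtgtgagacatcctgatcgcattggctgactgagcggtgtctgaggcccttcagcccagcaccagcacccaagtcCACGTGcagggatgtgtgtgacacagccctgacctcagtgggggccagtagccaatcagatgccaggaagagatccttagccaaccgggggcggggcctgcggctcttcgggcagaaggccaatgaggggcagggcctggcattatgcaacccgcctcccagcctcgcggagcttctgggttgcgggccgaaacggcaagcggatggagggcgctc
Bhlhe41, higher (chr6:145865371-145865670, minus strand, motif 153 bases before the start): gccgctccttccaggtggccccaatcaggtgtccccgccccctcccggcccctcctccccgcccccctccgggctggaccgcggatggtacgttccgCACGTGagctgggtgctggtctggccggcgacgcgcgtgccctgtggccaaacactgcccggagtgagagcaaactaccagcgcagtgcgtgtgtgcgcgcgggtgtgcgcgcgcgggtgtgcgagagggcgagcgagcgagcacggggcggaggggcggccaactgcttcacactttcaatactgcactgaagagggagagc
Tef, lower (chr15:81802423-81802722, plus strand, motif 127 bases before the start): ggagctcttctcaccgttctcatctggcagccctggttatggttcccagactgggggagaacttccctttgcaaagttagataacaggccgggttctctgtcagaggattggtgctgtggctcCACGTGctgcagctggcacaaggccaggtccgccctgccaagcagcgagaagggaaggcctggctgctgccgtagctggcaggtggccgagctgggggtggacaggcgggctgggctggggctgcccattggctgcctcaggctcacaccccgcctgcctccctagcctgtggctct
Klf15, lower (chr6:90462326-90462625, plus strand, motifs 228, 172 and 3 bases before the start): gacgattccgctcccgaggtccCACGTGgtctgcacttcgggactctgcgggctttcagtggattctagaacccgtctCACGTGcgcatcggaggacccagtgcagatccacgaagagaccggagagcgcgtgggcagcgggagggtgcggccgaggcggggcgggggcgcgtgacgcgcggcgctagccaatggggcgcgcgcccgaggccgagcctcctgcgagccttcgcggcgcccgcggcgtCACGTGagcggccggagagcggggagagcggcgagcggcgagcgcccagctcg
A match is a description of the sequence and not a binding site shown in these hearts.

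Most genes called at ZT20 had the same direction at the other times. The same comparison gave 7707 genes at ZT0, 5924 at ZT4, 8347 at ZT8, 5772 at ZT12 and 7388 at ZT16 (42.5%, 32.7%, 46.1%, 31.9% and 40.8% of those tested), each time on other hearts of both genotypes. Of the 4283 genes higher at ZT20, 4077 (95.2%) had the same sign at all 5 other times and 2387 (55.7%) also passed at all 5. Of the 2959 lower genes, 2834 (95.8%) had the same sign and 1690 (57.1%) passed at all 5. At none of the other times did 369 of the higher (8.62%) and 218 of the lower genes (7.37%) pass, but none of these passed the test of a difference between times.

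That test compares the genotype difference at ZT20 with the mean of the same difference at the other 5 times. It was passed by 3 of 18119 genes (0.0166%), with 965 at an unadjusted p under 0.05 (5.33%). limma-voom called 0 and DESeq2 called 6. Against single times, edgeR's quasi-likelihood test called 0 genes for ZT0, ZT4 and ZT8 (0%, with 671, 680 and 1175 at an unadjusted p under 0.05, with limma-voom and DESeq2 also at 0), and 1 each for ZT12 and ZT16 (0.00552%), in both cases Mtfr2.

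**Figure D3:**
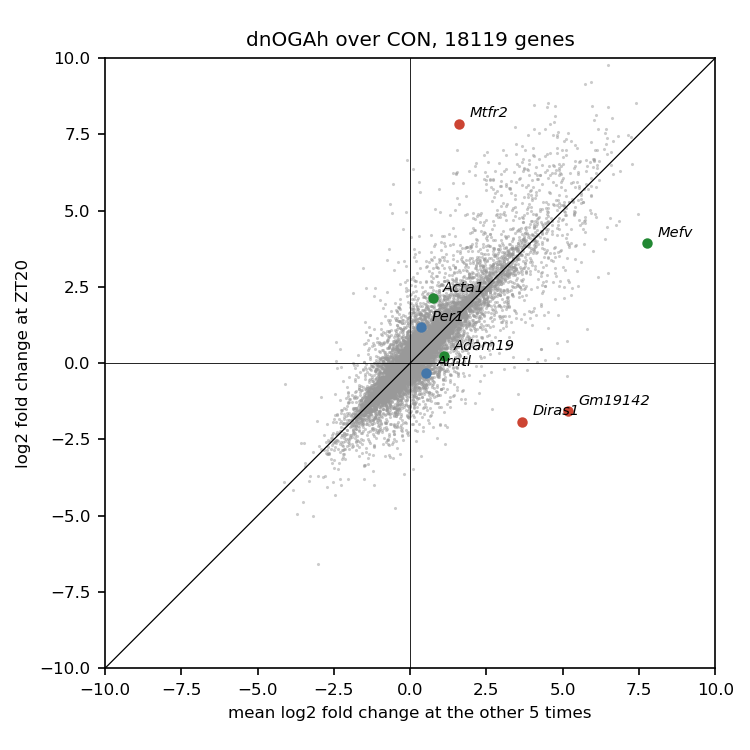
Log2 fold change of dnOGAh over CON at ZT20 (vertical) against its mean over the other 5 times (horizontal), 1 gray point per tested gene, with the line of equal values and 8 genes named. The 3 genes that passed the departure test are in red, Mtfr2 above the line (a fitted value, since all 5 CON hearts had 0 counts at ZT20, where it was at least 24.6-fold higher) and Diras1 and Gm19142 below it. The values of Diras1 and Gm19142 are also fitted and rest on few CON counts.

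All 3 genes had low counts. Mtfr2, of the mitochondrial fission regulator family, had 0 counts in each of the 5 CON hearts at ZT20, and 177 counts in all in dnOGAh hearts, from 15 to 72 per heart (2.18, 0.918, 1.00, 0.732 and 0.445 CPM). Against a floor of 3 counts over the CON group this is at least 24.6-fold higher. At the other times the CON hearts held 23 to 51 counts per group and the dnOGAh hearts 144 to 241, with counts in every heart of both genotypes. The difference departed from the other times (log2 6.26 ± 1.07 (SE), unadjusted p = 3.87e-07, adjusted p = 0.00701, a fitted value that was log2 3.05 with limma-voom), and it passed under 16 of 17 alternatives (adjusted p from 0.00314 to 0.356). Diras1, a small GTPase of the Ras family, was at 0.332, 0, 0, 0.234 and 0.515 CPM in CON and 0, 0, 0.215, 0.0861 and 0 CPM in dnOGAh hearts at ZT20 (log2 -5.60 ± 1.00 (SE), unadjusted p = 9.48e-07, adjusted p = 0.00859). Gm19142, for which no role is given here, was at 0, 1.42, 0, 0.117 and 0 CPM in CON and 0, 0, 0.251, 0.0861 and 0.118 CPM in dnOGAh hearts (log2 -6.74 ± 1.22 (SE), unadjusted p = 1.82e-06, adjusted p = 0.011). For Diras1 and Gm19142 the genotypes overlapped at ZT20 and the difference at that time did not pass (adjusted p = 0.0691 and 0.214). Their mean log2 fold changes at the other times (3.68 and 5.17) are fitted values that rest on few CON counts. Both genes had 0 counts in every CON heart at ZT0, so the size of these departures is uncertain. Diras1 passed the departure test under 14 of 17 alternatives (adjusted p from 0.00267 to 0.0699) and so did Gm19142 (0.00593 to 1), whose departure was lost without CON replicate 2 (log2 -3.81). With a mean of at least 1 CPM required, none of the 3 was tested and 0 of 13790 genes passed (664 at an unadjusted p under 0.05).

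Of the 12 genes with the smallest p of that test, Adam19, a membrane metalloproteinase of developing and injured heart, was the best expressed. It was at 26.1, 18.7, 22.5, 21.3 and 18.1 CPM in CON and 31.2, 23.0, 31.3, 18.1 and 22.1 CPM in dnOGAh hearts at ZT20, with overlapping groups (log2 0.23 ± 0.19 (SE), adjusted p = 0.357). At the other times its log2 fold change was 0.90 at ZT0, 0.56 at ZT4, 1.37 at ZT8, 1.40 at ZT12 and 1.28 at ZT16, each of which passed. In CON hearts its mean level was 20.4 CPM at ZT0 and ZT4, 10.7 at ZT8, 7.87 at ZT12, 11.2 at ZT16 and 21.4 at ZT20, while in dnOGAh hearts it ran from 20.4 CPM at ZT12 to 37.9 at ZT0. ZT20 was thus the time of the highest CON mean and of the next to lowest dnOGAh mean. The departure was log2 -0.87 ± 0.21 (SE), unadjusted p = 0.000159, adjusted p = 0.289, and without the 3 libraries that stood apart it passed (log2 -0.93, adjusted p = 0.0124, against 0.0124 to 0.588 over the alternatives). Under that setting 10 genes passed, with Mefv, the gene of pyrin in myeloid cells (log2 -3.97, adjusted p = 0.0171), and Sars2 and Thop1, a mitochondrial tRNA synthetase and an oligopeptidase (log2 0.64 and 0.62), among them. Mefv was higher in dnOGAh hearts at ZT20 (log2 3.93) but by less than the mean of the other times (log2 7.76), both fitted values that rest on few CON counts. Armc3, an armadillo repeat gene, had 0 counts in the 5 CON hearts and 79 in dnOGAh hearts at ZT20, which is at least 11.0-fold higher, and its departure did not pass (log2 6.75 ± 1.71 (SE), unadjusted p = 0.000237, adjusted p = 0.352).

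In the departure test 4 of 10 core clock genes and 1 of 12 output factors and repressors had an unadjusted p under 0.05 (5.33% of all tested genes did), and none passed after adjustment over all genes. Arntl had log2 -0.31 at ZT20, which did not pass, while its log2 fold changes at the other times were -0.29 at ZT0, -0.06 at ZT4, 1.16 at ZT8, 1.48 at ZT12 and 0.35 at ZT16, of which those at ZT8 (adjusted p = 0.000376) and ZT12 (adjusted p = 0.000118) passed. Its departure was log2 -0.84 ± 0.28 (SE), unadjusted p = 0.00368, adjusted p = 0.704. The mean Arntl level in CON hearts fell from 23.8 CPM at ZT0 to 1.09 at ZT12 and was back at 17.2 ± 2.10 (SD, n = 5) at ZT20, where dnOGAh hearts had 13.8 ± 4.16, while at ZT12 dnOGAh hearts had 3.02. Nr1d1 went the opposite way, at log2 0.28 at ZT20, not passed, and -0.23 at ZT0, -0.84 at ZT4, -0.73 at ZT8, -0.48 at ZT12 and -0.10 at ZT16, with ZT4 (adjusted p = 0.00494) and ZT8 (adjusted p = 0.0101) passed (log2 0.76 ± 0.27 (SE), unadjusted p = 0.00735, adjusted p = 0.784). ZT20 was the time of its lowest mean in both genotypes, 11.2 ± 2.49 CPM in CON and 13.5 ± 2.47 in dnOGAh hearts (SD, n = 5), against 82.7 and 50.01 at ZT8. For Per1 the values were 1.18 at ZT20 and 0.84 at ZT0, 0.19 at ZT4, 0.03 at ZT8, 0.28 at ZT12 and 0.39 at ZT16, with ZT20 and ZT0 passed (departure log2 0.83 ± 0.35 (SE), unadjusted p = 0.0208, adjusted p = 0.862). For Clock they were -0.36 at ZT20 and -0.14 at ZT0, -0.12 at ZT4, 0.10 at ZT8, 0.28 at ZT12 and -0.03 at ZT16 (departure log2 -0.38 ± 0.16 (SE), unadjusted p = 0.0189, adjusted p = 0.859). Ciart, a repressor of CLOCK and BMAL1, had log2 0.00 at ZT20 and -0.69 at ZT0, -0.58 at ZT4, -1.47 at ZT8, -1.03 at ZT12 and -0.47 at ZT16 (departure log2 0.85 ± 0.33 (SE), unadjusted p = 0.0138, adjusted p = 0.815), with CON means of 4.32 CPM at ZT20 and 20.7 at ZT8. Neither limma-voom nor any other alternative brought the departures of Arntl, Clock or Per1 under an adjusted p of 0.05 (lowest 0.129, 0.224 and 0.351).

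**Figure D4:**
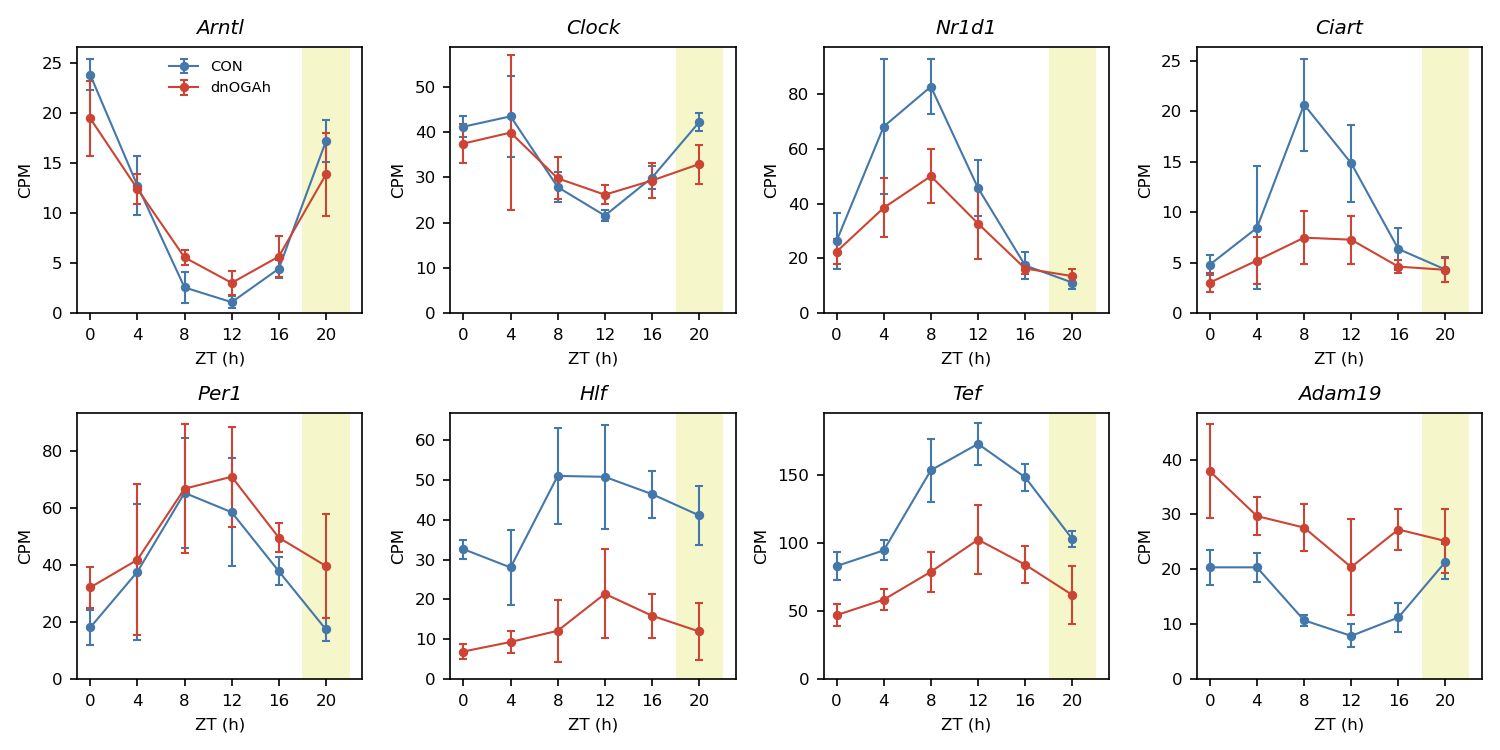
Level of 8 genes over the 6 times of day (ZT in h, horizontal) in CON (blue) and dnOGAh hearts (red), as mean CPM (vertical, from 0) with SD bars (n = 5 hearts per point) and ZT20 shaded. At ZT20 the Arntl, Nr1d1, Ciart and Adam19 points of both genotypes lie close together, whereas Hlf and Tef are lower and Per1 is higher in dnOGAh hearts.

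The gene groups that lead the comparison at ZT20 had medians of the same sign at every time. The collagen median was 2.06 at ZT20 and from 1.53 to 2.59 at the other times, and the median of macrophage markers was 2.67 at ZT20 and from 2.37 to 3.08 at the other times. For fatty acid uptake and oxidation it was -1.13 at ZT20 and from -1.38 to -0.97 at the other times. For ion channels it was -1.16 at ZT20 and from -1.36 to -0.97 at the other times. No member of these groups passed the departure test. Whether the rank of ZT20 among the times differs for any group was not tested.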

How the data were processed

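RNA of 60 ventricular samples, 1 heart each, was sequenced by the authors from a strand-specific polyA library. The deposited values are raw read counts per gene, which the authors made, per the submitters' processing notes, with Trim Galore 0.6.7, STAR 2.7.10b and HTSeq 2.0.2 on GRCm39. The annotation release and the strand setting of the counting are not given in the sources used here, so overlapping and antisense genes may share reads. HTSeq's summary rows, 33.5% to 36.9% of reads in CON and 28.0% to 31.0% in dnOGAh libraries at ZT20, name no gene and were left out of library sizes and tests. Gene names came from a table for GRCm38 (Oga is Mgea5 and Bmal1 is Arntl there). The labels' ZT24 is given as ZT0.

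edgeR 4.0.16 (R 4.3.3) was applied to the counts in 1 fit of 12 groups (5 libraries each, TMM, filterByExpr with a minimum count of 10, which left 18119 genes, glmQLFit and glmQLFTest, Benjamini-Hochberg adjustment over all tested genes, threshold 0.05). Contrasts were the genotype difference at each time, that at ZT20 minus the mean of the other 5, and that at ZT20 minus each of them. All log2 fold changes and adjusted p-values named without a tool are from this edgeR fit. The share of mitochondrial counts was tested by exact permutation. The code was tested on simulated data with known changes. Named genes were Oga and Ogt, all clock list members, Col1a1, Col3a1 and Col4a1, the 8 highest and 8 lowest changes (passed, mean of at least 5 CPM, no overlap), the 12 smallest p of the departure test, up to 3 passed members per other list by size of change, and list members that passed the departure test. Other list members were named after their values were seen. Members and gene lists were chosen with earlier results of these data known. Alternatives were DESeq2 size factors, scaling without mitochondrial and the 20 highest genes, dropping the filter or requiring 1 CPM on average, the replicate number as a block, leaving out each ZT20 library or 3 libraries that stood apart, the 10 ZT20 libraries alone, a 2-fold minimum, limma-voom (limma 3.58.1) and DESeq2 1.42.0. Samples were not treated as paired by replicate number (correlation of same-numbered deviations at ZT20 from -0.098 to 0.098). Depth is 9162859 to 39839222 counts at ZT20, so genes of a few counts per heart carry wide error. Mean depth was lower in CON at ZT20 (16130000 counts) than in any other of the 12 groups. Each genotype also had its lowest mean number of genes detected at ZT20 (18570 in CON, 21610 in dnOGAh hearts). Whether this bears on the departure calls was not tested. Promoter windows came from RefSeq. Some genes that the naming rule or the lists hold are not reported here by name, but they stay in the counts and medians.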

Additional observations from a re-analysis of the deposited data

Results flagged for a closer look

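In 27 of 268 groups of 5 hearts (10.1%), 1 heart lay far from the rest by Dixon's criterion. Chance gives this in about 1 in 20 groups of normally distributed values. CPM were used untransformed, and genes near 0 counts are skewed, so these rates cannot show an excess. The dnOGAh replicate 5 was that heart in 6 of the 27 groups. It had 13.8 CPM of Dbp (3.02 to 4.35 in the other four), 15.0 of Adhfe1 (5.05 to 7.56), 183 of Ly6a, a marker of resident fibroblasts (304 to 349), 117.5 of Kdr (27.4 to 50.4), 366 of Etfa (149 to 202) and 6959 of Acta1 (420.2 to 1048). Replicate 4 of dnOGAh had 33.6 CPM of Mt2 (0.215 to 3.15), 1141 of Nppa (215 to 481) and 49.5 of Lcn2, lipocalin 2 (6.62 to 16.4). Replicate 1 had 1664 CPM of Col1a1 (802 to 1051) and 15.9 of Col8a2 (4.09 to 6.59), and replicate 2 had 5.18 of Il6 (0.538 to 1.72).

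Among CON hearts, replicate 1 had 0.474 CPM of En2 and 0.617 of Ano7, both at 0 in the other four. Replicate 2 had 1.42 CPM of Gm19142 (0 to 0.117), 986 of Hrc (1125 to 1174) and 29020 of mt-Nd6 (16800 to 17710). Replicate 3 had 0.704 CPM of Clec4d (0 to 0.117), 1129 of Acta1 (229.8 to 298) and 3.52 of Mbp (1.46 to 1.80). Replicate 4 had 61.0 CPM of Efnb3 (41.4 to 44.4), 0.759 of Cdca7l (0 to 0.117), 0.35 of Cd8a (0 to 0.0644) and 0.117 of Il6 (0 in the others). Replicate 5 had 69.4 CPM of Adhfe1 (62.3 to 64.0), 5.15 of Fcgr1 (2.57 to 2.94) and 0.0644 of Siglecf (0 in the others).

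The genotype difference at ZT20 departed from the mean of the other 5 times by edgeR's quasi-likelihood test for Mtfr2 (log2 6.26), Diras1 (log2 -5.60) and Gm19142 (log2 -6.74). All of these are fitted values at low counts.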

How the results depend on the processing

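Calls at ZT20 stayed within 1.5 times of 4283 higher and 2959 lower genes under every alternative but the 2-fold minimum (2721 and 957), and with each library left out they ran from 3925 to 4401 and from 2419 to 3409. The share of higher among all calls was 59.1%, with 52.2% (mean of at least 1 CPM) and 63.4% (no filter) as its extremes, and 109 of the 132 named genes kept their side of the threshold and direction throughout. The departure test was the fragile one. Against the mean of the other 5 times, 3 genes became 0 with a mean of at least 1 CPM, 0 with limma-voom, 6 with DESeq2 and 10 without the 3 libraries that stood apart, and 2 to 4 with each library left out. Against ZT8, 0 became 4 without the 3 libraries. Against ZT12, 1 became 5 without them, 2 with DESeq2, and 0 with limma-voom and with a mean of at least 1 CPM. Against ZT16, 1 became 0 with no filter, with a mean of at least 1 CPM, with limma-voom and with DESeq2, and was 0 to 2 with each library left out. Against ZT0 it was 0 to 1. The share of mitochondrial counts differed by -17.1 to -14.5 points with each library left out. The cause of these shifts was not tested. A minimum of 1 CPM removes Mtfr2, Diras1 and Gm19142. It does not remove Adam19 or Mefv, which passed without the 3 libraries.

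With the replicate number as a block, 7256 genes differed at ZT20, and 1 gene, Mtfr2, departed from the mean of the other 5 times and 0 from ZT16. The departures of Diras1 and Gm19142 did not pass with the block (adjusted p = 0.0534 and 0.101, edgeR's quasi-likelihood test). Same-numbered hearts had correlated deviations of -0.098 to 0.098, and only number 2 correlated best with its own number. These few correlations at ZT20 cannot exclude a batch shared by same-numbered hearts. At ZT4 the libraries numbered 4 stood apart in both genotypes (77.6% and 66.0% mitochondrial counts).

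The fold change of Ciart turned to -0.0164 under scaling without mitochondrial and the 20 highest genes, -0.0325 with a mean of at least 1 CPM and -0.053 on the 10 ZT20 libraries. With each library left out it ran from -0.14 to 0.13, that of Ogt from -0.12 to 0.0063, that of Gm19142 from -2.27 to 1.37 and that of Ano7 from -0.49 to 5.23. The departures of En2 and Ano7 ran from -4.68 to 0.58 and from -5.35 to 0.37. Depth limits these last, low-count genes most.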
